A study of Mus musculus with 6 samples.

Results

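The 36 genes described here encode aminoacyl-tRNA synthetases, 20 that act in the cytosol and 16 that act in mitochondria. They were taken by gene symbol from a table of 54146 genes, and all 36 had a TPM (a level corrected for transcript length and scaled to the same total in each library) high enough to be tested among 12301 genes. The cells were D2A1, a mouse mammary tumor cell line grown in 3D Matrigel in medium with serum. The study's methods name no animal or other cell type for this culture. They received recombinant SLURP1 (rSLURP1), a secreted Ly6/uPAR-related protein, or recombinant GST (rGST) as the control protein, each at 50 nM per the sample labels, and the study's methods give harvest on day 5. Each treatment had 3 libraries, numbered 1 to 3, and nothing says whether these came from separate cultures, so p-values measure the spread between these libraries, which may be technical.

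A synthetase attaches an amino acid to its tRNA, and this charging step supplies the ribosome. Cytosolic and mitochondrial translation mostly use separate enzymes, both encoded in the nucleus, and names ending in 2 mark the mitochondrial ones. Gars and Kars give enzymes for both compartments, Eprs joins the glutamate and proline enzymes in a single chain, and Farsa and Farsb are the subunits of the phenylalanine enzyme. Cytosolic synthetases are also known as part of the amino acid response: when uncharged tRNA accumulates, the kinase GCN2 phosphorylates eIF2alpha, translation of the transcription factor ATF4 rises, and ATF4 acts on genes for amino acid synthesis, transport and tRNA charging.

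The levels have to be read against a shift across the whole table. The median log2 fold change of all tested genes was -0.33 (rSLURP1 against rGST, on the scale of log2(TPM + 1), which understates changes of low genes). Median-ratio scaling, which sets the typical gene of every library to the same level, moved that median to 0.01 on the same 12301 genes. The TPM unit keeps no read depth, so counting error is unknown, and 3 libraries against 3 cannot give a two-sided exact permutation p below 0.1 for any single gene. Of the 6 epithelial markers, Krt18 was at 191.1 to 199.4 TPM in the 6 libraries, Krt8 was at 0.51 to 1.66, Cdh1 did not exceed 0.07, and Epcam, Krt5 and Krt14 were listed at 0. Mesenchymal or fibroblast markers (6 of 6 called lower, against 58.5% of all tested genes) summed to 2252 to 2478 TPM with rGST and to 725.4 to 778.8 with rSLURP1. Lum was at 165.1 to 194.6 TPM with rGST and at 0.58 to 1.09 with rSLURP1. Dcn was at 519.7 to 635.6 TPM with rGST and at 5.15 to 5.88 with rSLURP1. The 4 leukocyte markers summed to 3.58 to 4.16 and 8.02 to 10.6 TPM, nearly all of it Cd68, and Ptprc and Cd3e were at 0.01 or less. The 3 endothelial markers summed to 0.31 TPM or less. The part of a change in cell state in the results below was not tested, and in bulk RNA fewer cells of a type and less RNA per cell cannot be told apart.

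Cytosolic synthetases were mostly higher with rSLURP1. Of the 20 genes, 14 rose, 5 fell and 1 (Qars) passed the test in neither direction, at an adjusted p of 0.05 or less in limma. Over all tested genes, 8.66% were called higher and 58.5% lower. The 14 genes that rose had log2 fold changes from 0.16 to 1.34 (1.12 to 2.57 times the mean TPM of rGST), and 12 of them were called in all 13 alternative fits (Aars, Cars, Eprs, Gars, Iars, Mars, Nars, Rars, Sars, Tars, Wars and Yars). Their calls as higher also held with median-ratio scaling, under which 17 cytosolic genes were higher and 0 lower (background 26.6% higher and 24.6% lower), so the direction of the 5 genes called lower was not kept. Correcting fold changes for the length and GC content of transcripts gave 17 and 0 as well (background 24.0% and 24.5%).

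**Figure D1:**
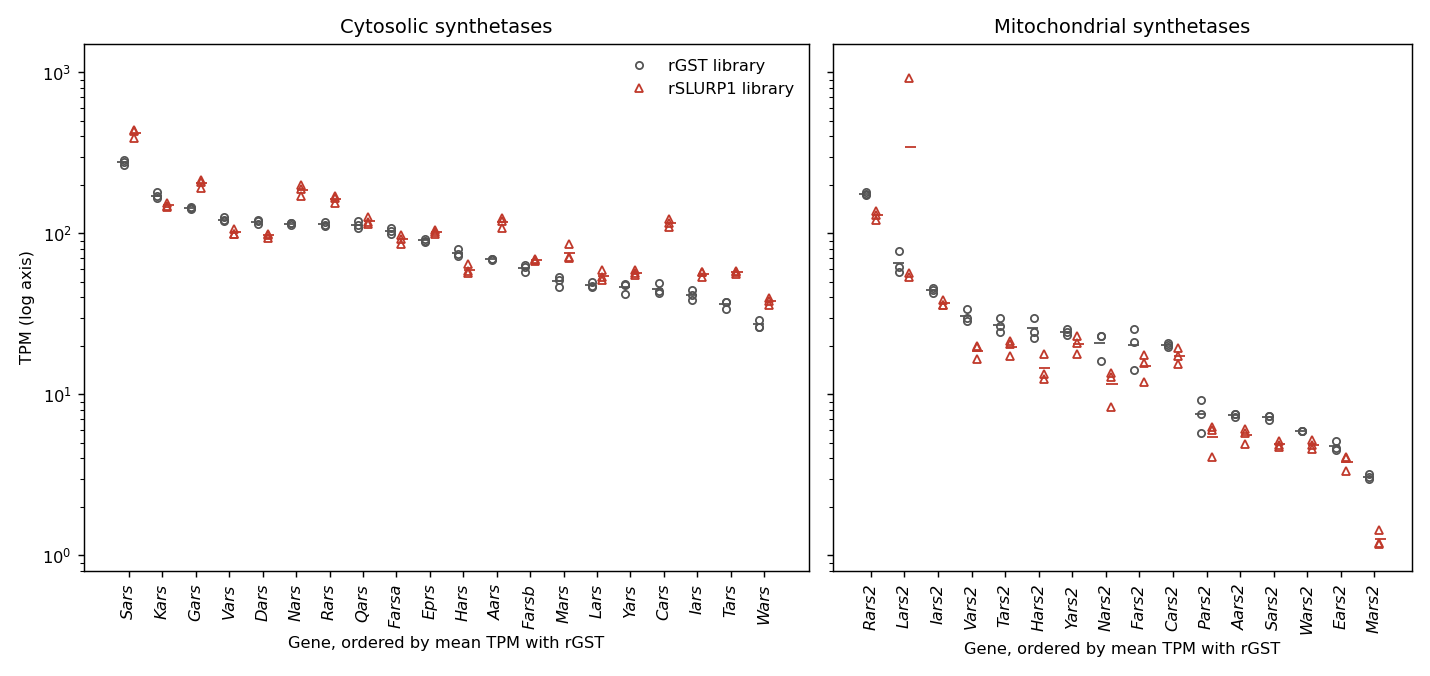
TPM on a log axis for each synthetase gene, cytosolic on the left and mitochondrial on the right, in order of the mean with rGST. Circles are the 3 rGST libraries, triangles the 3 rSLURP1 libraries and short lines the means; the Lars2 triangle at 926.6 TPM stands far above the other Lars2 libraries.

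The cysteine enzyme gene Cars (ENSMUSG00000010755.17; GRCm38, mm10, chr7:143557230-143600090, minus strand) changed most among the genes that rose. It was at 43.6, 42.5 and 49.1 TPM in the rGST libraries and at 115.6, 122.3 and 109.0 in the rSLURP1 libraries. Every rSLURP1 library was more than 2-fold above every rGST library. Its exons share 211 bases with a processed pseudogene, Gm15580, on the opposite strand. Cars changed by 1.34 ± 0.069 on the log2 scale (± standard error; limma, adjusted p = 4.70e-06), at percentile 99.2 of all tested genes, and as deposited it was the only cytosolic synthetase past both the adjusted p and a fold change of 2, a threshold that 1.15% of all genes passed upward and 7.06% downward. With median-ratio scaling 4 cytosolic genes passed both (Cars, Aars, Nars and Tars), and 3 did after the length and GC correction.

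Aars (ENSMUSG00000031960.14; chr8:111033144-111057664, plus strand), the alanine enzyme, was at 69.5, 68.3 and 69.6 TPM with rGST and at 118.5, 124.5 and 108.5 with rSLURP1. Nars, the asparagine enzyme, was at 115.3, 115.4 and 113.5 TPM with rGST and at 188.3, 199.5 and 170.9 with rSLURP1. Tars, the threonine enzyme, was at 37.5, 33.8 and 37.3 TPM with rGST and at 56.2, 57.5 and 58.8 with rSLURP1. None of these genes overlapped between treatments, and the rGST libraries of Aars and Nars lay close together. The log2 fold changes were 0.75 for Aars (standard error 0.056, adjusted p = 2.40e-05), 0.69 for Nars (0.058, 4.23e-05) and 0.65 for Tars (0.055, 4.42e-05), all in limma.

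Sars, the serine enzyme, had the highest TPM of all 36 genes with rGST, at 276.8, 267.5 and 284.8, and was at 438.1, 430.7 and 388.4 with rSLURP1 (log2 fold change 0.60, adjusted p = 5.67e-05 in limma). Gars, the glycine enzyme of both compartments, was at 141.3 to 146.2 TPM with rGST and at 190.5 to 213.8 with rSLURP1. Mars, the methionine enzyme that also charges the initiator tRNA, was at 46.5 to 53.5 and 70.0 to 86.3 TPM, respectively. The treatments did not overlap in Sars, Gars or Mars, and the log2 fold changes were 0.51 for Gars and 0.58 for Mars (adjusted p = 9.24e-05 and 9.72e-04 in limma). The exons of Aars share 1326 bases with Exosc6, and those of Mars share 68 bases with Ddit3, an ATF4 target, so a part of their reads may not be assigned uniquely.

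Wars, the tryptophan enzyme, is also known as an interferon-gamma-induced gene. It was at 26.1, 29.0 and 26.3 TPM with rGST and at 38.1, 39.9 and 35.7 with rSLURP1, a rise of 0.47 ± 0.066 on the log2 scale (± standard error; limma, adjusted p = 5.65e-04). Its increase stood beside a fall of 6 genes of the interferon-gamma program (Irf1, Gbp2, Gbp3, Psmb8, Psmb9 and Tap1; log2 fold changes -3.06 to -1.11), among which Gbp3 went from 45.2 ± 5.42 to 4.53 ± 0.0777 TPM (SD, n = 3 each). With median-ratio scaling the direction was the same, higher for Wars (0.82) and lower for these 6. Of all tested genes, 58.5% were called lower as deposited and 24.6% with that scaling.

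The remaining genes that rose were Rars (arginine), Iars (isoleucine), Yars (tyrosine), Lars (leucine), Eprs and Farsb. Rars went from 113.7 ± 3.79 to 162.7 ± 8.19 TPM and Iars from 41.5 ± 2.85 to 56.3 ± 2.41 (SD, n = 3 each). Yars, Lars, Eprs and Farsb had log2 fold changes of 0.30, 0.19, 0.17 and 0.16, the smallest of the group. The calls of Lars and Farsb did not hold throughout. Lars had an adjusted p of 0.0892 in limma without rGST replicate 1, 0.0741 without rGST replicate 2, 0.0700 without rSLURP1 replicate 2, 0.0556 without a filter on low genes and 0.0514 with the replicate number as a block. Farsb had an adjusted p of 0.0613 without rGST replicate 3 and 0.0542 without rSLURP1 replicate 1, in the same test.

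The 5 cytosolic genes called lower as deposited were Hars (histidine), Dars (aspartate), Vars (valine), Kars (lysine) and Farsa. Their log2 fold changes ran from -0.34 to -0.17, close to or above the median of all genes, and with median-ratio scaling they ran from 0.02 to 0.19, all above 0. With that scaling Farsa and Kars passed the test as higher (adjusted p = 0.0135 and 0.00999 in limma). Corrected for length and GC instead, Farsa and Vars passed as higher (adjusted p = 0.0140 and 0.0483 in limma), Kars was not called (0.105), and Dars (-0.01) and Hars (-0.07) stayed below 0 and were not called. Kars was at 179.4, 170.4 and 165.5 TPM with rGST and at 147.9, 154.7 and 146.7 with rSLURP1. Qars, the glutamine enzyme, was at 108.6 to 119.3 and 114.2 to 126.4 TPM, and its libraries overlapped (log2 fold change 0.07, limma adjusted p = 0.274, but 0.43 and 2.48e-04 after median-ratio scaling). The 2 subunits of the phenylalanine enzyme, which are needed in equal amounts in the protein, thus had values of opposite sign as deposited (0.16 for Farsb and -0.17 for Farsa) and the same sign with median-ratio scaling (0.52 and 0.19).

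**Figure D2:**
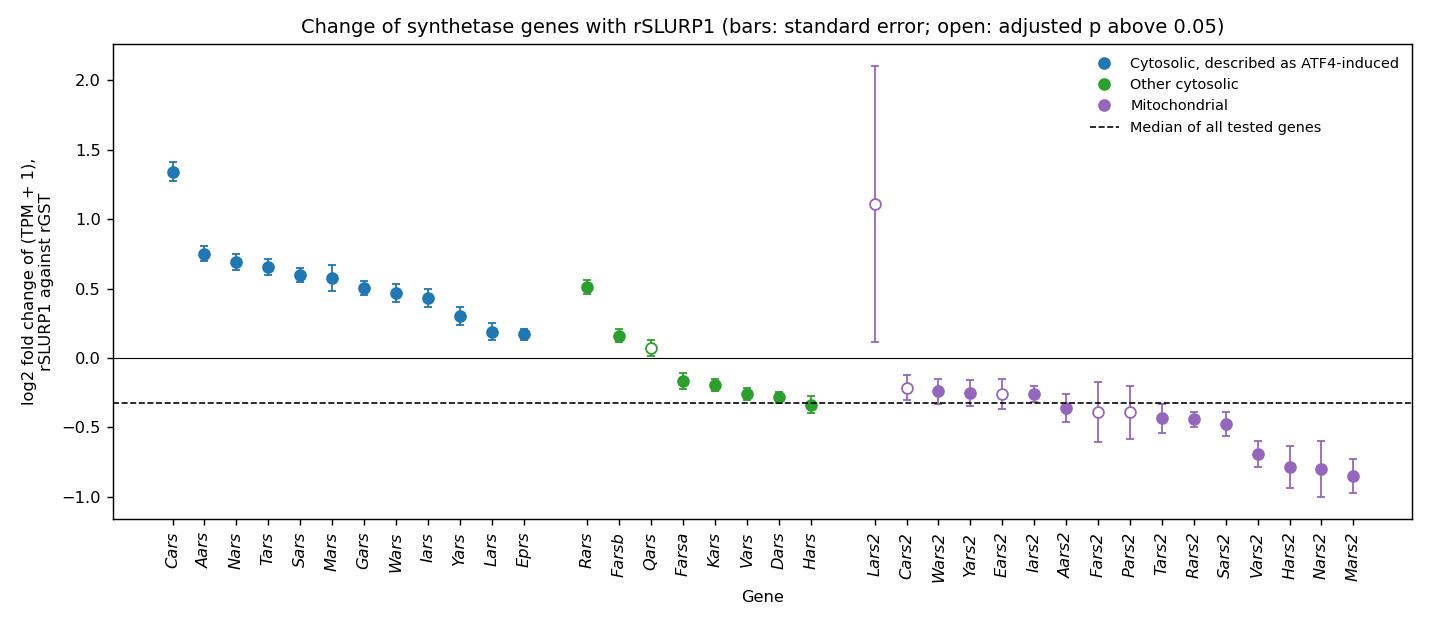
Log2 fold change of (TPM + 1), rSLURP1 against rGST, for each synthetase gene in 3 groups, with standard errors from limma and open symbols for an adjusted p above 0.05. The dashed line is the median of all tested genes (-0.33). All 12 cytosolic genes described as ATF4-induced lie above 0, 7 of the 8 other cytosolic genes lie above the dashed line, and 6 of the 16 mitochondrial genes do; genes between that line and 0 turn positive with median-ratio scaling.

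The cytosolic genes divided along a grouping from the literature on ATF4. Aars, Cars, Eprs, Gars, Iars, Lars, Mars, Nars, Sars, Tars, Wars and Yars are commonly described as induced by ATF4, and 12 of these 12 rose, with a median log2 fold change of 0.54. The groups were set from general knowledge, and no factor binding was measured. Of the 8 other cytosolic genes, 2 rose (Rars and Farsb) and 5 fell, with a median of -0.18. As deposited, 8.66% of all tested genes were called higher and 58.5% lower, so the share of this group that fell was near that of the table. With median-ratio scaling the medians were 0.90 and 0.18, with 12 of 12 and 5 of 8 genes higher and none lower (background 26.6% higher and 24.6% lower). Summed TPM of the first group was 991.6, 978.4 and 995.2 with rGST and 1507, 1553 and 1391 with rSLURP1. The summed TPM of the other group was 878.7, 874.4 and 881.5, against 848.8, 873.5 and 827.3. The ratio of the sums, which no scaling of a library can change, averaged 1.13 ± 0.00566 in rGST libraries and 1.74 ± 0.0552 in rSLURP1 libraries (SD over 3 libraries), and the lowest rSLURP1 library (1.68) was above the highest rGST library (1.13).

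The transcript of Atf4 itself and the other genes in a list of its program were higher as well. Atf4 was at 110.9, 114.7 and 122.0 TPM with rGST and at 370.2, 395.0 and 347.9 with rSLURP1 (log2 fold change 1.67, adjusted p = 8.22e-07 in limma). A list of 14 genes of the ATF4 program outside the synthetases, with Atf4 as 1 of them, was chosen with earlier results of these data known. Of these, 14 rose, with a median log2 fold change of 1.33, and 14 were higher with median-ratio scaling. Of all tested genes, 8.66% were called higher as deposited and 26.6% with that scaling. The largest changes were in Trib3, a pseudokinase that acts as a feedback inhibitor (2.76), Slc7a11, the cystine transporter (2.71), Chac1, which degrades glutathione (2.25), and Asns, asparagine synthetase (2.22). The synthetase median of 0.54 was below that of this list. Among the pairings of a synthetase with the supply of its amino acid, Cars stood beside Slc7a11, which imports its amino acid in oxidized form and went from 3.13 ± 0.168 to 26.1 ± 1.89 TPM, and Nars beside Asns, which went from 30.9 ± 1.59 to 147.4 ± 6.99 TPM (SD, n = 3 each).

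Sequences near the start sites are shown for synthetase genes in which a short element was found there. ATF4 binds a composite element, and its form TGATGNAA was searched on both strands (TTNCATCA on the opposite strand) in RefSeq promoters of GRCm38.p6, from 250 bases before to 50 after the start. Promoters matched by symbol for 26 of the 36 genes. Cars, Lars, Mars, Nars, Rars and Wars, which rose, had no match and were not searched. The element was in 5 of 12 cytosolic promoters (41.7%), in 0 of 15 promoters of 14 mitochondrial genes, and in 1304 of all 32851 promoters (3.97%). The 5 genes, Aars, Gars, Iars, Tars and Yars, all rose and all belong to the ATF4-described group, of which 7 genes had a promoter in the table. The element was also in 4 of 15 promoters of the other ATF4 program (Asns, Chac1, Slc7a11 and Trib3). It was also in a promoter of Gbp3, which fell. A match describes the letters and is not a site at which binding was measured. Distances were counted from the RefSeq start, which need not be the start of the gene in GENCODE. For Aars the GENCODE bounds begin upstream of it, at chr8:111033144. The windows are given 5′ to 3′ on the strand of the gene, with the element in capitals.
Aars, chr8:111033840-111033869, element at bases 10 to 17 of the transcript: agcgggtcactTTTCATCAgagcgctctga
Gars, chr6:55037960-55037989, element 30 to 23 bases before the start: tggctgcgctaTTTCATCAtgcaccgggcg
Iars, chr13:49682126-49682155, element at bases 8 to 15 of the transcript: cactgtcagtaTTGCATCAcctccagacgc
Tars, chr15:11399655-11399684, minus strand, element 15 to 8 bases before the start: caggagtcccgTTGCATCAgctggttagct
Yars, chr4:129189895-129189924, element at bases 4 to 11 of the transcript: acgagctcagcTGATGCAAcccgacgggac

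Of these windows, that of Yars alone had the element in the forward direction. Eprs, Sars and Farsb, which rose, Qars, and Dars, Farsa and Kars, which were lower as deposited, had promoters in the table without these letters, which says nothing about the factor.

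Other groupings of the cytosolic enzymes showed a less clear division. The multi-synthetase complex holds 8 enzymes, of which 5 rose (Eprs, Iars, Lars, Mars and Rars), 2 fell (Dars and Kars) and Qars passed in neither direction, with a median log2 fold change of 0.18. With median-ratio scaling 7 of the 8 were higher and none lower. Of all tested genes, 8.66% were called higher and 58.5% lower as deposited, and 26.6% and 24.6% with that scaling. Of its 3 scaffold genes, Aimp1 rose from 85.3 ± 4.10 to 112.1 ± 5.01 TPM (adjusted p = 4.60e-04 in limma), and Eef1e1 (log2 fold change 0.25, adjusted p = 0.0605) and Aimp2 (-0.01, 0.895) passed the test in neither direction as deposited. All 3 were higher with median-ratio scaling, Eef1e1 by 0.61 (adjusted p = 0.00209 in limma) and Aimp2 by 0.34 (0.0115). By catalytic fold, 8 of 10 class I genes rose and 1 fell, and 6 of 10 class II genes rose and 4 fell. Median log2 fold changes were 0.37 and 0.33, so the classes lay close together, and the difference was not tested.

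Mitochondrial synthetases moved with the bulk of the table. None of the 16 genes rose, 11 fell and 5 passed the test in neither direction as deposited, whereas 3 were lower and 0 higher with median-ratio scaling and 4 were lower and 1 higher (Iars2) with the length and GC correction. These counts stand beside 58.5% of all tested genes called lower as deposited, 24.6% with median-ratio scaling and 24.5% with the correction. Their median log2 fold change was -0.39, or -0.07 relative to all tested genes, against 0.37 and 0.69 for the cytosolic genes. Of the 16, 6 lay above the median of all genes, against 19 of the 20 cytosolic genes. In 13 of the 16 every rSLURP1 library was below every rGST library, which held for 61.7% of all tested genes, and in 14 of the 20 cytosolic genes every rSLURP1 library was above, which held for 9.75%.

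The decrease was largest in Mars2 (ENSMUSG00000046994.9; chr1:55237177-55248470, plus strand), which supplies methionyl-tRNA for initiation and elongation in mitochondria. Mars2 was at 3.20, 3.06 and 2.98 TPM with rGST and at 1.20, 1.18 and 1.43 with rSLURP1. All rSLURP1 libraries were below all rGST libraries, at levels near the filter of 1 TPM. On the log2 scale it changed by -0.85 ± 0.122 (± standard error; limma, adjusted p = 6.11e-04), and it was the only mitochondrial gene called lower in all 13 alternative fits.

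Nars2, Hars2 and Vars2 followed, with log2 fold changes of -0.80, -0.78 and -0.69. Vars2 was at 33.9, 28.7 and 29.8 TPM with rGST and at 16.5, 19.6 and 19.9 with rSLURP1. Hars2 was at 29.98, 22.4 and 24.6 TPM with rGST and at 12.4, 13.5 and 17.7 with rSLURP1. Nars2 was at 16.1 to 23.1 TPM with rGST and at 8.29 to 13.6 with rSLURP1. The treatments did not overlap in these genes, and Hars2 and Vars2 were also lower with median-ratio scaling (adjusted p = 0.0448 and 0.0160 in limma), as Mars2 was (0.00476), whereas Nars2 was not called there (0.0884). Hars2 and Hars lie head to head and share 195 exonic bases on opposite strands, and whether counting used the strand is not given in the sources used here. Exons of Vars2 share 465 bases with Gm20483, and those of Nars2 share 284 bases with C230038L03Rik, both on the opposite strand. In total 13 of the 36 synthetase genes share exonic bases with another gene, 10 of them with a protein-coding gene, and not every case is named here.

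Rars2 (ENSMUSG00000028292.14; chr4:34614957-34660167, plus strand), the mitochondrial arginine enzyme, was the most abundant mitochondrial synthetase with rGST, at 172.4, 175.5 and 181.8 TPM. With rSLURP1 it was at 121.3, 129.9 and 138.2 TPM, below all rGST libraries. Its change of -0.44 ± 0.054 on the log2 scale (± standard error; limma, adjusted p = 2.57e-04) shrank to -0.08 under median-ratio scaling (adjusted p = 0.229). Sars2, Tars2, Aars2, Iars2, Yars2 and Wars2 were also called lower as deposited, with log2 fold changes from -0.48 to -0.24, and none of these 6 was called lower with median-ratio scaling, where Iars2, Yars2 and Wars2 had values above 0. Cars2, Ears2, Fars2 and Pars2 had log2 fold changes from -0.39 to -0.21 and passed the test in neither direction.

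Lars2, the mitochondrial leucine enzyme (ENSMUSG00000035202.8; chr9:123366927-123462666, plus strand), stood apart because of 1 library. It was at 57.3, 62.0 and 78.1 TPM with rGST, at 53.4 and 57.0 in rSLURP1 replicates 2 and 3, and at 926.6 in rSLURP1 replicate 1. The fitted log2 change was 1.11 ± 0.994 (± standard error; limma, adjusted p = 0.350), and without rSLURP1 replicate 1 it was -0.24 (adjusted p = 0.147). Only 3 genes of the table reached 500 TPM in that library at 8 or more times the level of the other rSLURP1 libraries, a criterion chosen after the values were seen. Beside Lars2 these were Mir6236 (7440 TPM, against 269 to 390 in the other 5 libraries), annotated as a miRNA gene, and RP23-81C12.3 (19833 TPM, against 1071 to 1751), annotated as a lincRNA. The mitochondrial rRNA gene mt-Rnr1 was at 969.3 TPM there and at 339.7 to 538.9 in the others. The other mitochondrial rRNA gene, mt-Rnr2, did not stand apart there, at 1229 TPM against 1097 and 1226 in the other rSLURP1 libraries and 530.3 to 601.7 with rGST, and the part of these transcripts in the Lars2 value was not tested. Lars was at 53.6 TPM in the same library, within the range of the other rSLURP1 libraries.

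**Figure D3:**
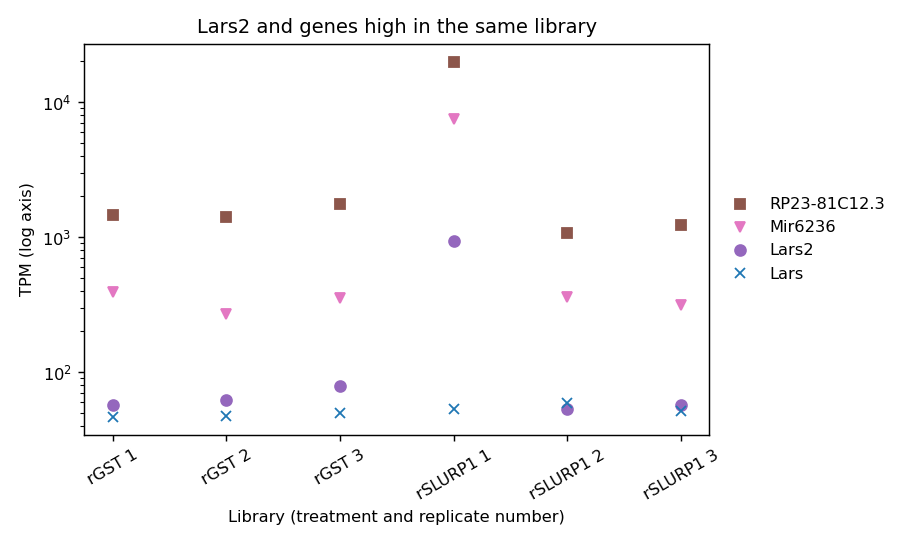
TPM on a log axis in each library for Lars2, for Lars and for the 2 other genes that were high in rSLURP1 replicate 1. Lars2, Mir6236 and RP23-81C12.3 are high together in that library, whereas Lars is at 46.3 to 59.0 TPM in all 6 libraries.

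Within a library, cytosolic enzymes gained on their mitochondrial partners. The log2 ratio of a cytosolic to a mitochondrial gene, computed from TPM + 1, hardly depends on how a library was scaled. It was computed for 17 pairs of the same amino acid, in which Eprs and Fars2 each enter 2 pairs. The mean ratio was higher with rSLURP1 in 16 of 17 pairs, and in 14 all rSLURP1 libraries lay above all rGST libraries, each with the smallest two-sided p that an exact permutation test of 3 against 3 can give (0.1, or 0.121 after Benjamini-Hochberg adjustment over the 17 pairs). The differences ran from -0.92 (Lars and Lars2) to 1.55, with a median of 0.69. Without rSLURP1 replicate 1 the difference for Lars and Lars2 was 0.44, so its sign rested on that library.

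On the scale of TPM + 1 the gap widened most for cysteine. The log2 ratio of Cars to Cars2 was 1.12, 1.03 and 1.20 with rGST and 2.83, 2.60 and 2.58 with rSLURP1. Asparagine (Nars to Nars2, a difference of 1.49), methionine (Mars to Mars2, 1.42), alanine (Aars to Aars2, 1.11), threonine (Tars to Tars2, 1.09) and serine (Sars to Sars2, 1.07) followed. Each of these differences was more than 1 on the log2 scale, and the treatments did not overlap. For the histidine pair, whose members both had lower TPM, the difference was 0.45, and for valine it was 0.43. With 0.1 instead of 1 added to each TPM, the difference was larger for methionine (1.80) than for cysteine (1.58).

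For arginine and isoleucine the order of the enzymes changed. With rGST, Rars was below Rars2 in all libraries (log2 ratio -0.63, -0.57 and -0.69), and with rSLURP1 it was above (0.48, 0.34 and 0.15). Iars and Iars2 were about equal with rGST (0.00, -0.15 and -0.12), and Iars was higher with rSLURP1 (0.67, 0.56 and 0.56). The exons of Iars2 share 2034 bases with Rab3gap2 on the opposite strand, so the level of Iars2 may hold reads of that gene. In all other pairs except leucine the cytosolic gene was the higher one in all 6 libraries. The pairs with Fars2 overlapped between treatments (exact permutation p = 0.2 for Farsb and 0.4 for Farsa, two-sided, n = 3 each), and Fars2 itself varied among rGST libraries, at 14.1, 21.1 and 25.6 TPM.

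**Figure D4:**
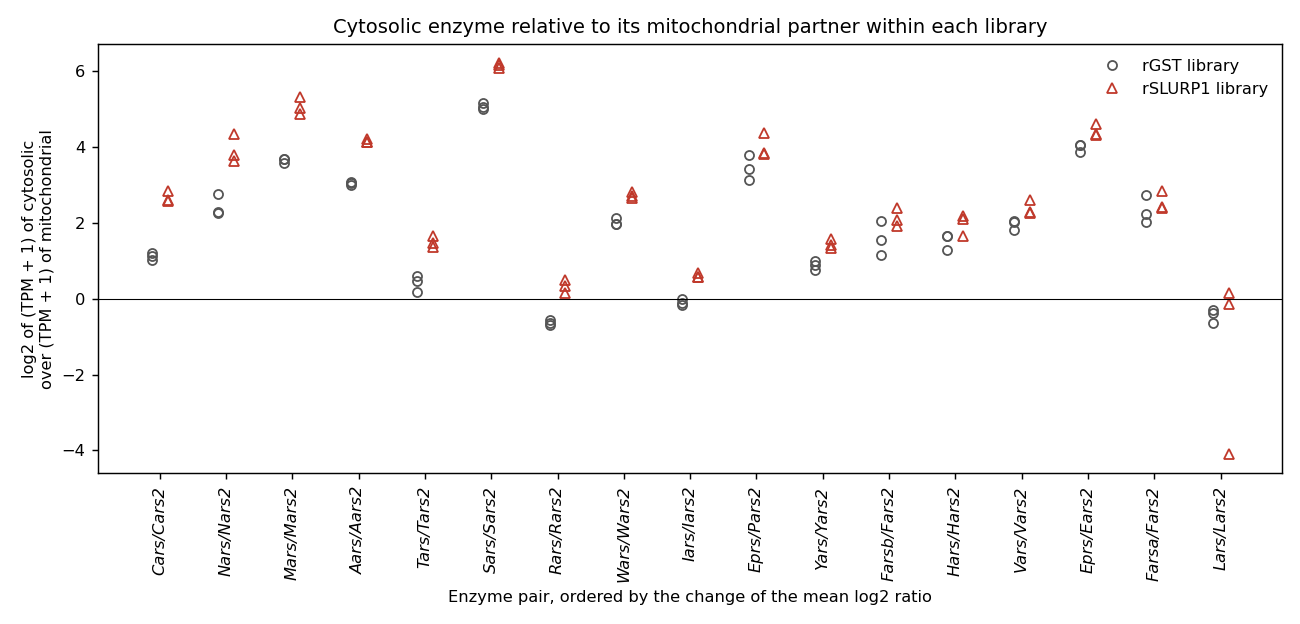
Log2 ratio of the cytosolic to the mitochondrial gene, each as TPM + 1, for 17 pairs in the 3 rGST (circles) and 3 rSLURP1 libraries (triangles), ordered by the change of the mean. The triangles lie above the circles in 14 pairs, and the Lars and Lars2 pair falls to -4.09 in rSLURP1 replicate 1.

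Summed over genes, cytosolic synthetases were at 1870, 1853 and 1877 TPM with rGST and at 2356, 2426 and 2218 with rSLURP1, 25.0% more on average. Mitochondrial synthetases without Lars2 were at 415.2, 426.9 and 435.7 TPM, against 287.6, 324.4 and 318.2, which fell by 27.2% on average. The ratio of these sums averaged 4.38 ± 0.106 in rGST libraries and 7.55 ± 0.613 in rSLURP1 libraries (SD over 3 libraries), and the libraries of the treatments did not overlap. With Lars2 included the ratio was 3.80 ± 0.153 and 4.76 ± 2.45, at 1.94 in rSLURP1 replicate 1 and 6.42 and 5.91 in the other rSLURP1 libraries, so that the treatments then overlapped. Cytosolic genes were also the more abundant of the compartments, with a median gene at 83.0 TPM against 20.5 with rGST and at 99.3 against 14.8 with rSLURP1. The longest annotated transcripts had a median of 3066 bases in the cytosolic and 3490 in the mitochondrial group, and a median GC content of 49.8% and 49.3%.

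Other genes of tRNA charging were called about as often as the genes of the whole table. In a list of 16 such genes, 1 rose (Aimp1), 7 fell and 8 passed the test in neither direction, with a median log2 fold change of -0.24, and with median-ratio scaling 5 were higher and 4 lower. All tested genes were called higher in 8.66% and lower in 58.5% of cases as deposited, and in 26.6% and 24.6% with that scaling, so these counts are no result about the list. The 4 that were lower in both were Dtd1, which removes D-amino acids from tRNA (from 31.4 ± 1.57 to 16.9 ± 1.14 TPM, SD, n = 3 each), Sepsecs, which makes selenocysteinyl-tRNA (log2 fold change -0.68), Tarsl2, a further threonine enzyme of the cytosol (-0.68), and Aarsd1, an editing protein for alanine (-0.68). Tarsl2 was thus lower in libraries in which Tars was higher, at 6.10 to 6.78 TPM with rGST and 3.59 to 3.81 with rSLURP1. Xpot, the tRNA exporter that is also described as an ATF4 target, was at 42.7 to 48.3 and 38.3 to 52.4 TPM and overlapped between treatments (log2 fold change 0.03, limma adjusted p = 0.831, but 0.38 and 0.0179 after median-ratio scaling). Gatb, Gatc and Qrsl1, which make mitochondrial glutaminyl-tRNA in the absence of a separate enzyme, had log2 fold changes of -0.46, -0.43 and -0.19, of which Gatc alone passed the test, and not with median-ratio scaling (adjusted p = 0.322 in limma).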

How the data were processed

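RNA from D2A1 cells treated with rGST or rSLURP1 in 3D culture was sequenced in 6 libraries, 3 per treatment. For library preparation the labels give a TruSeq mRNA kit and the study's methods Smart-seq2. Per the labels, the submitters' processing notes list bcl2fastq 2.20, Cutadapt 1.18, STAR 2.5.2b, RSEM 1.3.3, DESeq2 and the mm10 build. The authors deposited TPM per gene, which carries no counts, so depth is unknown and the count test the authors used could not be applied. Here log2(TPM + 1) was fitted with limma 3.58.1 (R 4.3.3, empirical Bayes with trend, no covariate) over 12301 of 54146 genes that reached 1 TPM in at least 3 libraries, and p-values were adjusted over all of these by Benjamini-Hochberg. An adjusted p of at most 0.05 was called. Ratios within a library were compared by exact permutation tests. Positions and exon overlaps came from GENCODE M21 on the same build, in which 54079 gene identifiers matched without their version, and promoters from RefSeq.

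The members and gene lists were chosen with earlier results of these data known, and the ATF4 and compartment groups from general knowledge. Under the rule for named genes any of the 36 synthetases could be given with values, and other lists by counts with up to 4 examples of the largest called change. The members given by library, and Xpot, Gatb, Gatc, Qrsl1, Mir6236, RP23-81C12.3, mt-Rnr1 and mt-Rnr2, were chosen after their values were seen. A gene of the interferon-gamma list and a promoter window are not reported here. The same fit on simulated data, with 200 of 12301 genes changed by 1 on the log2 scale, recovered 177 with the right sign, called 5 unchanged genes, and called 0 genes when nothing was changed. The simulated noise was independent between libraries and there was no shift across the table. It therefore cannot speak to calls that depend on scaling or to smaller changes. Samples with the same replicate number did not deviate together (correlations of deviations -0.06, -0.03 and -0.06). With 3 libraries per treatment this cannot exclude that the numbers pair the libraries. Alternatives were a pseudocount of 0.1, no filter on low values, no trend, median-ratio scaling, fold changes corrected for length and GC content of the transcripts (loess), the replicate number as a block (also with that correction), and leaving out each library. Figures were drawn with matplotlib 3.10.9.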

Additional observations from a re-analysis of the deposited data

How the results depend on the processing

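How the libraries were scaled decided the calls of genes that lay near the median of the table. All genes called higher numbered 1065, against 3274 with median-ratio scaling, 2954 once fold changes were corrected for length and GC, and 2745 where this was combined with the replicate block. Those called lower numbered 7200, against 3029, 3016 and 2781. The median of all genes was 0.0063 with median-ratio scaling, -0.0041 after correcting length and GC (also in the combined fit) and -0.098 without a filter. Cytosolic genes called lower went from 5 to 0 in these 3 fits, and mitochondrial ones from 11 to 3, 4 and 3, with 1 higher after correcting length and GC alone. The cytosolic median became 0.72 in all 3 and the mitochondrial median -0.065 with median-ratio scaling and -0.026 in both corrected fits. The difference between these medians, 0.76, ranged from 0.68 to 0.80 over all settings. In both fits corrected for length and GC the values that turned positive were those of Aars2 (0.023), Cars2 (0.12), Ears2 (0.16), Farsa (0.18), Iars2 (0.14), Kars (0.087), Vars (0.17), Wars2 (0.13) and Yars2 (0.054). With median-ratio scaling they were those of Cars2 (0.13), Dars (0.076), Ears2 (0.035), Farsa (0.19), Hars (0.020), Iars2 (0.10), Kars (0.16), Vars (0.10), Wars2 (0.066) and Yars2 (0.10).

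Whether samples with the same replicate number belong together is not stated. With the replicate block alone 1008 genes were higher and 6954 lower, with 13 cytosolic genes higher and 5 lower and 10 mitochondrial genes lower. Leaving out each library in turn gave 906 to 1020 genes higher and 6605 to 6999 lower. Cytosolic genes called higher then numbered 13 to 14, those called lower 4 to 5, and mitochondrial genes called lower 9 to 12. The cytosolic median was 0.34 to 0.40 and the mitochondrial one -0.46 to -0.32. Without rSLURP1 replicate 1, Lars2 was at -0.24 and the Lars to Lars2 difference at 0.44, and over the left-out libraries these ran from -0.24 to 1.81 and from -1.68 to 0.44. Of the comparisons of single genes between settings, 389 kept direction and side of the threshold, 43 lost the call, 7 gained one and 29 changed sign. TPM without counts limits what can be said of low genes such as Mars2.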
